A study of Mus musculus with 18 samples.

Results

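The nuclear genes of respiratory chain complexes III and IV and of ATP synthase (complex V) were taken as the rows of the 4 normalized count tables whose Ensembl ID maps to a protein-coding mouse symbol that starts with Uqcr, with Cox and a digit, or with Atp5, together with Cyc1 and Cycs. The rule used names only and no measured value. It found 55 of 55469 gene IDs, which are 54 symbols because Atp5o has 2 IDs. By role these are 9 subunits of complex III, cytochrome c (Cycs), 10 widely expressed and 7 tissue-restricted subunits of complex IV, the supercomplex factor Cox7a2l, 9 assembly factors of complex IV that carry a Cox name, 5 subunits of the F1 head of complex V, 5 rows of its stalks, 3 c-ring genes, 4 supernumerary subunits, and Atp5s, which is known as coupling factor B.

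Complex III takes electrons from ubiquinol and hands them to cytochrome c, complex IV passes them from cytochrome c to oxygen, and the proton gradient that both build drives the rotor of complex V, which makes ATP. Cytochrome b of complex III and some core subunits of complexes IV and V are encoded in the mitochondrial genome and made on mitochondrial ribosomes, while the other subunits and all assembly factors are encoded in the nucleus and imported. ELAC2 is the nuclease that trims the 3′ ends of tRNA precursors, including those cut out of the long transcripts of the mitochondrial genome.

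The ventral and lateral lobes of the prostate of 18 male mice were used for RNA sequencing, 3 per line and age, and the question was how each Elac2 line differed from its control at 10 and at 30 weeks of age. All mice carried 1 copy of TRAMP, in which the probasin promoter drives SV40 T antigens in prostate epithelium, on the strain written as C56NL/6N. WT-TRAMP mice had wild-type Elac2 (ELAC2+/+). KO-TRAMP mice (ELAC2-/-) lacked Elac2 only where Pb-Cre, which is active in prostate epithelium, had cut the gene, so that the other cells of the lobes kept it. A537T-TRAMP mice were homozygous for the Ala537Thr change in the whole body. The labels give a replicate number and no batch or date. Each library is read here as 1 mouse, since the paper sequenced RNA from 3 of each line, and p-values measure the spread between libraries. Libraries are named here by their number in the table headers. The WT-TRAMP libraries were 1 to 3 at 10 weeks of age, with 10 to 12 at 30 weeks of age. A537T-TRAMP was represented by libraries 4 to 6 (younger) plus 13 to 15 (older). KO-TRAMP was represented by libraries 7 to 9 (younger) plus 16 to 18 (older). The KO-TRAMP and A537T-TRAMP comparisons of an age share their WT-TRAMP libraries.

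A normalized count is a library's estimated reads divided by 1 size factor, set within a table of 6 libraries, and values were compared only within a table. Differences are given as log2 fold changes of normalized counts after adding 1, each with its standard error (SE). The tests are limma's, with Benjamini-Hochberg adjusted p over all genes with a mean of at least 10. Between 9380174 and 14830104 reads were recovered per library, and the members took 0.218% to 0.506% of them. Elac2 itself did not separate the groups in any of the 4 comparisons (log2 fold changes −0.22, −0.09, −0.19 and 0.05, limma adjusted p 0.522 or more). Luminal markers of prostate were abundant in every library of the KO-TRAMP tables, with sums of 24905 to 57226 normalized counts over both ages. At 10 weeks the sums were 35635 to 57226, so that the lowest was at 30 weeks. Seminal vesicle genes, which should be absent after dissection, summed to between 12.5 and 496832 at 30 weeks in the KO-TRAMP table. Sums of marker lists are given beside the results they moved with.

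Of the 55 rows, 47 passed the filter in every table, Cox6b2 and Cox7a1 passed only in the KO-TRAMP table at 30 weeks, and 6 passed in none. Those 6 were Cox4i2, Cox6a2, Cox7b2, Cox8b, Cox8c and the other ID of Atp5o, which shares 94% of its 31-base words with other genes and had no reads. Per kilobase of merged exons, the catalytic β subunit of the F1 head, Atp5b, was the most abundant member in WT-TRAMP at 30 weeks with 3134 normalized counts. Cox4i1, the largest nuclear subunit of complex IV, followed with 2385 and Uqcrh, the hinge protein of complex III, with 1797 normalized counts per kilobase. The assembly factors ranged from 29 for Cox11 to 388 for Cox14 on this scale, and the subunits from 71.8 for Uqcrq upward, so that the ranges overlapped. The 3 c-ring genes, which encode the same mature c subunit behind different import sequences, had mean normalized counts of 506, 648 and 775 in WT-TRAMP (Atp5g1, Atp5g3 and Atp5g2). Per kilobase these were 103, 894 and 1060.3, a gap that follows the merged exon lengths of 4912, 724 and 731 bases. Several members share sequence with other annotated genes. The share of 31-base words found in another gene was 55.2% for Cox16, 40.2% for Atp5g2, 32.4% for Uqcrb and 29.2% for Cycs, so their values are less certain than those of Uqcrq, Cox8a or Atp5d, which share none.

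Promoters of respiratory chain genes are known for sites of NRF1, of ETS-family factors such as GABP, and of YY1. RefSeq promoter windows of GRCm38.p6, each with 250 bases before and 50 after a start, were found for 40 of the 54 symbols. The letters GCGCATGCG (NRF1) occurred on either strand in 7 of these 40 genes (17.5%), against 1.95% of all 27025 genes. The letters CCGGAAGT (ETS) occurred in 8 (20%, against 4.31%) and AAGATGGCG (YY1) in 3 (7.5%, against 1.64%). The NRF1 letters were in Atp5g2, Atp5k, Atp5l, Cox6a1, Cycs, Uqcr11 and Uqcrc1. The windows below belong to members that lead the comparisons that follow, with matches in capitals. Atp5k is read from chr5:108434350-108434649 on the minus strand, where the NRF1 letters match on both strands and overlap, starting 50 and 49 bases before the start. Uqcr11 is read from chr10:80406772-80407071 on the minus strand, with the ETS letters 66 and the NRF1 letters 5 bases before the start. Atp5e, from chr2:174464052-174464351 on the minus strand, holds none of these letters. The window of Atp5g1, which also leads there and is not printed, holds none either. For the leading members Cox6c and Uqcrq no window was found.
Atp5k: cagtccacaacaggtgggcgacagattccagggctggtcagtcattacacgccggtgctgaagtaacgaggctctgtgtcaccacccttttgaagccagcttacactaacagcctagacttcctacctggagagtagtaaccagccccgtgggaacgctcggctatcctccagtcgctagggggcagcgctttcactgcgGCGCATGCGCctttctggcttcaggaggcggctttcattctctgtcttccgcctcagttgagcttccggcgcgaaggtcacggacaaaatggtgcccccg
Uqcr11: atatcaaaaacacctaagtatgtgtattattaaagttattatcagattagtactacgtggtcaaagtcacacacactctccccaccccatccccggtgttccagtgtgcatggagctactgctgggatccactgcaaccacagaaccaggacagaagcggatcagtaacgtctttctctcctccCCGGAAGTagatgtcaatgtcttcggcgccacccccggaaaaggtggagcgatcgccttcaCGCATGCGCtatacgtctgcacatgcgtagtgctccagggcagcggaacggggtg
Atp5e: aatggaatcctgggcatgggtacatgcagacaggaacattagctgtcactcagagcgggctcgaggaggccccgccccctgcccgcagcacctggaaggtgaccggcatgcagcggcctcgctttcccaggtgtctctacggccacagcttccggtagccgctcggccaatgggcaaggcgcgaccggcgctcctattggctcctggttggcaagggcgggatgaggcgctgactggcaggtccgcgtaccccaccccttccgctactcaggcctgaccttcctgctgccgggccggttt

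At 30 weeks nearly all subunits were higher in KO-TRAMP than in WT-TRAMP, by a median of 0.39 on the log2 scale over the members, but none passed the adjusted threshold. Leaving aside the tissue isoforms, all 36 tested subunits, cytochrome c counted among them, had a log2 fold change above 0 (range 0.13 to 0.80). The 9 assembly factors that carry a Cox name were centred on 0.03 (range −0.23 to 0.36). This contrast holds for these 9 only, since 27 other factors of the complexes had a median of 0.18, with 21 above 0. A value above 0 was found for 43 of the 47 members tested in every table, where 50.9% of the 16900 genes tested had one. Cox6b2 (0.50, SE 0.49) and Cox7a1 (0.27, SE 0.60), tested in this table only, are left out of these counts, since Cox6b2 passed the filter through its KO-TRAMP values. At an unadjusted p under 0.05, limma had 26 members higher and 0 lower, against 7.7% of all genes higher, and all 26 were subunits. The 3 KO-TRAMP libraries lay above all 3 WT-TRAMP libraries for 30 of the 47, against 10.8% of all genes. No member reached an adjusted p of 0.05 (smallest 0.265, for Atp5g1), as did 0.213% of all genes, and edgeR also called 0. DESeq2 on the recovered reads called 5, namely Cox6c, Atp5g1, Atp5g3, Uqcrc2 and Atp5k, where it called 4.76% of all genes. In bulk tissue, more cells of a type and more RNA per cell cannot be told apart.

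**Figure D1:**
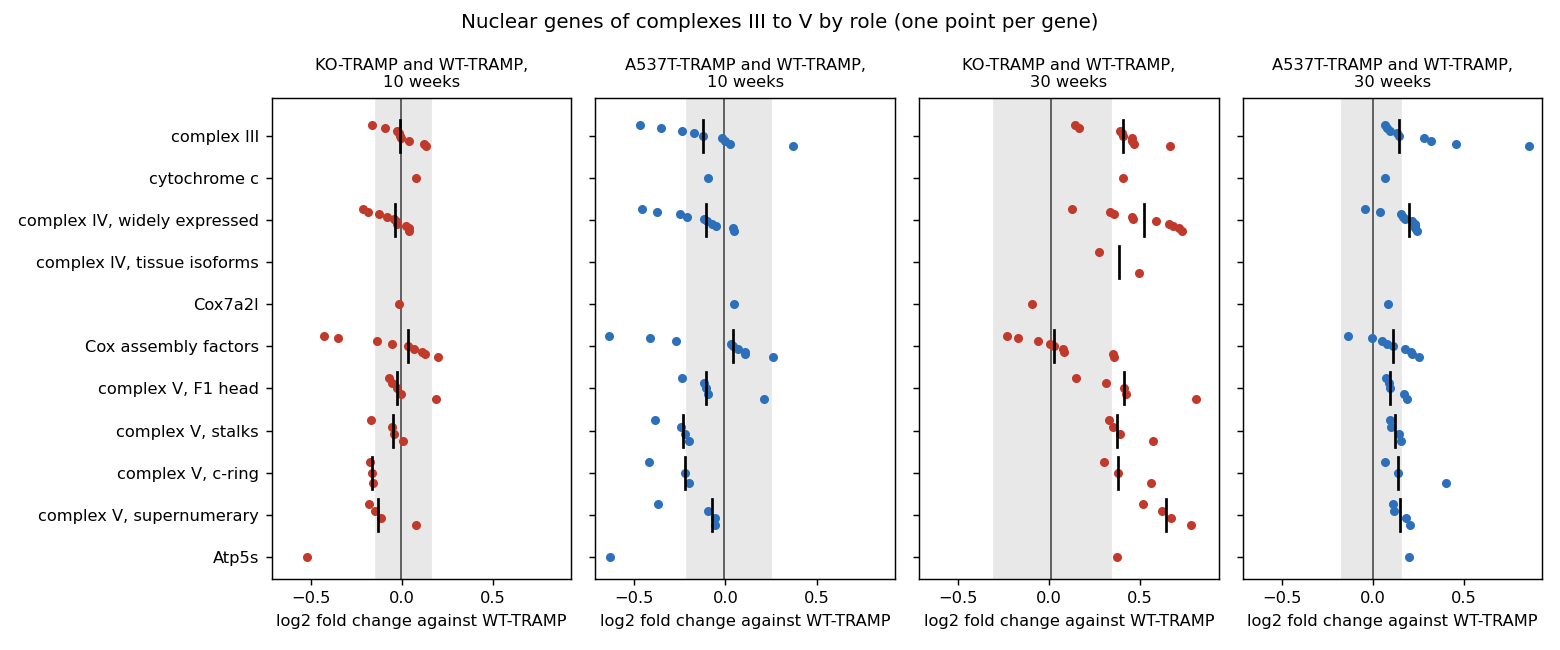
Log2 fold change of each member tested (1 point per gene) against WT-TRAMP, by role and comparison. Black bars are medians of a role, the grey line is the median and the grey band the quartiles of all genes tested. At 30 weeks in KO-TRAMP the subunit groups have medians of 0.37 to 0.64 and the Cox assembly factors 0.03.

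By role, the median log2 fold change in KO-TRAMP at 30 weeks was 0.41 for the 9 complex III subunits, 0.52 for the 10 widely expressed complex IV subunits, 0.41 for the 5 F1 subunits, 0.37 for the 4 stalk subunits, 0.38 for the 3 c-ring genes and 0.64 for the 4 supernumerary subunits of complex V. The quartiles of all genes were −0.30 and 0.34 around a median of 0.01. No overlap between the groups was seen for 6 of 9 complex III, 8 of 10 complex IV, 4 of 5 F1, 3 of 4 stalk, 3 of 3 c-ring and 4 of 4 supernumerary subunits. Of the 9 assembly factors only Cox17, a copper chaperone, did not overlap.

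The highest members were small subunits. Atp5e, the ε subunit of the F1 rotor (chromosome 2, 174461072 to 174464105, minus strand), had 361, 380.0 and 406 normalized counts in libraries 10 to 12 (WT-TRAMP), against 415, 953 and 754 in libraries 16 to 18 (KO-TRAMP). Library 16 stood just above the highest control and the other two KO-TRAMP libraries far above it. The log2 fold change was 0.80 (SE 0.30, 95% interval 0.07 to 1.54, limma adjusted p 0.362). Atp5k, subunit e of the membrane part of complex V (chromosome 5, 108433244 to 108434448, minus strand), had 264, 267 and 304 against 360.1, 628 and 479. Its 3 KO-TRAMP libraries were clear of the controls, 0.78 higher on the log2 scale (SE 0.22, limma adjusted p 0.327). Cox6c, a small subunit of complex IV (chromosome 15, 35925886 to 35938246, minus strand), had 695, 674 and 682 against 891, 1410.4 and 1162. Its controls differed by little, and the difference on the log2 scale was 0.73 (SE 0.18, 95% interval 0.30 to 1.16, limma adjusted p 0.276).

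**Figure D2:**
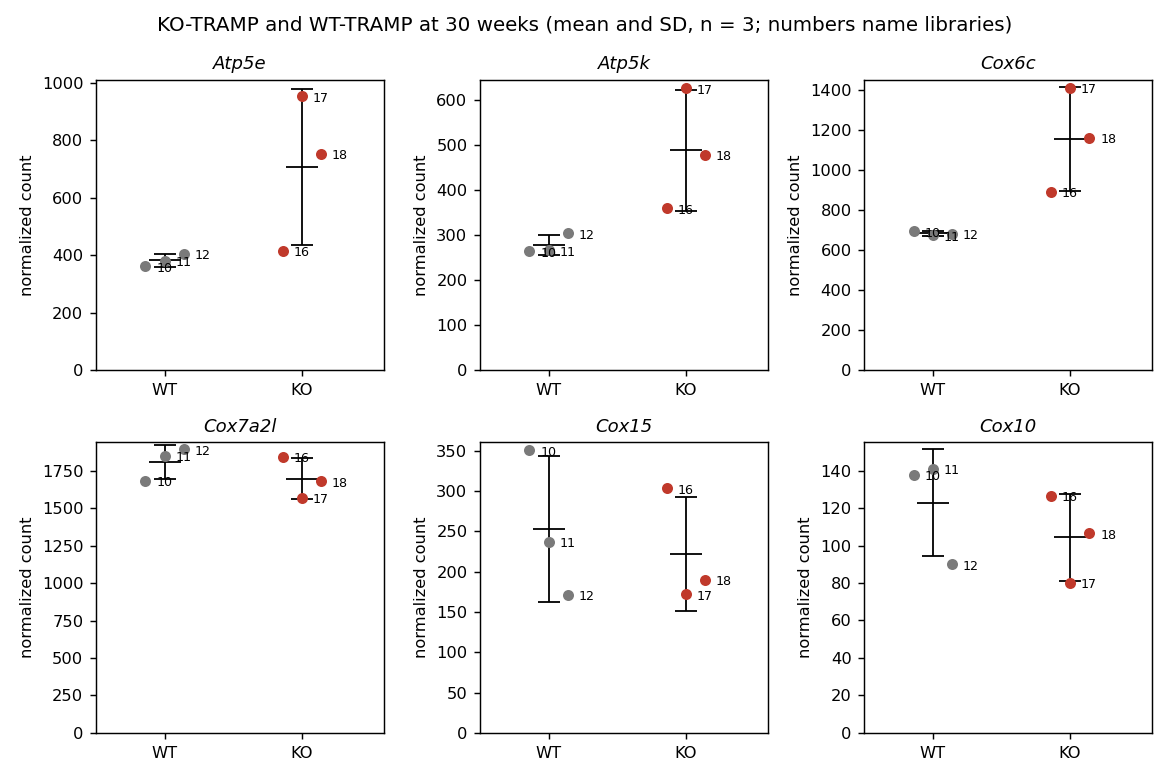
Normalized counts of the 3 members with the highest (top row) and the 3 with the lowest (bottom row) log2 fold change in KO-TRAMP at 30 weeks, among members with a mean of at least 100. Each point is a library, named by its number, and bars are mean and SD (n = 3). Atp5e reaches 953 in library 17 and 415 in library 16, and the groups overlap in the bottom row.

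The catalytic and core subunits were higher by smaller amounts. Atp5b had 5748, 6355 and 5909 normalized counts in WT-TRAMP and 6765, 9322 and 8187 in KO-TRAMP, which is 0.42 higher on the log2 scale (SE 0.14, limma adjusted p 0.343) with no overlap. Atp5a1, the α subunit of the F1 head, had a log2 fold change of 0.31 (SE 0.12), also with no overlap. Of the core proteins of complex III, Uqcrc2 went from 888, 982 and 957 to 1131, 1353 and 1225, a log2 difference of 0.39 (SE 0.11, limma adjusted p 0.327). Uqcrc1 had 812, 883 and 931 against 894, 990 and 1016, so that its groups overlapped (log2 fold change 0.14, SE 0.11). The Rieske iron-sulfur protein Uqcrfs1 (log2 fold change 0.40, SE 0.13) did not overlap. Cytochrome c1, Cyc1, had 387, 355 and 377 against 358, 647 and 576, and Cycs had 746, 716 and 765 against 730.5, 1331 and 977. In both of these haem proteins library 16 lay among the controls, and only libraries 17 and 18 were above them (log2 fold changes 0.45, SE 0.23, and 0.41, SE 0.22). In complex IV, Cox4i1 had the smallest difference (0.13, SE 0.11, overlap), Cox5a and Cox5b had 0.46 (SE 0.20) and 0.35 (SE 0.14), and only Cox5b was free of overlap.

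The widely expressed partners of the tissue isoforms were all above the controls without overlap except Cox4i1. Cox6a1 had a log2 fold change of 0.45 (SE 0.13), Cox6b1 0.58 (SE 0.18), Cox7a2 0.68 (SE 0.26), Cox7b 0.33 (SE 0.11) and Cox8a 0.71 (SE 0.22). The c-ring genes all went the same way without overlap. Atp5g1 had 439, 554 and 527 against 680.1, 766 and 783, a log2 difference of 0.56 (SE 0.13, limma adjusted p 0.265). Atp5g3 had 0.38 (SE 0.10) and Atp5g2, the most abundant of them per kilobase in WT-TRAMP, 0.30 (SE 0.12).

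The lowest members were not structural subunits in the strict sense. Cox10, the farnesyltransferase that makes haem O, had 138, 141 and 90.05 normalized counts in WT-TRAMP and 127, 80.2 and 107 in KO-TRAMP (log2 fold change −0.23, SE 0.27, limma adjusted p 0.671). Cox15, which turns haem O into haem A, had 350.2, 237 and 171 against 304, 172 and 190.1 (−0.17, SE 0.33). Cox7a2l, which joins complexes III and IV in supercomplexes, had 1682, 1851 and 1893 against 1844, 1571 and 1678 (−0.09, SE 0.11). All 3 overlapped between the groups, and for Cox10 and Cox15 the spread within WT-TRAMP was wider than the whole KO-TRAMP range.

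The size of the shift differed among the KO-TRAMP libraries. Against the WT-TRAMP mean, the median member deviated by −0.03, 0.04 and 0.02 in libraries 10 to 12 and by 0.16, 0.61 and 0.42 in libraries 16 to 18. Library 17 held the highest value of the 6 for 38 of the 49 members, with Cox6b2 and Cox7a1 counted among the 49. Library 16 was above the WT-TRAMP mean for 41 of the same 49. From library 16 alone against the controls, with its spread taken to be that of the others, the median was 0.16 with 40 of 47 members above 0, Atp5e had 0.12, and Cyc1 (−0.06) and Cycs (−0.02) turned negative. Without library 16, 24 members passed the adjusted threshold, all of them higher subunits or Cycs, where 18.1% of all genes passed. Leaving out library 16 gave a median of 0.52, and leaving out library 17 gave 0.30.

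**Figure D3:**
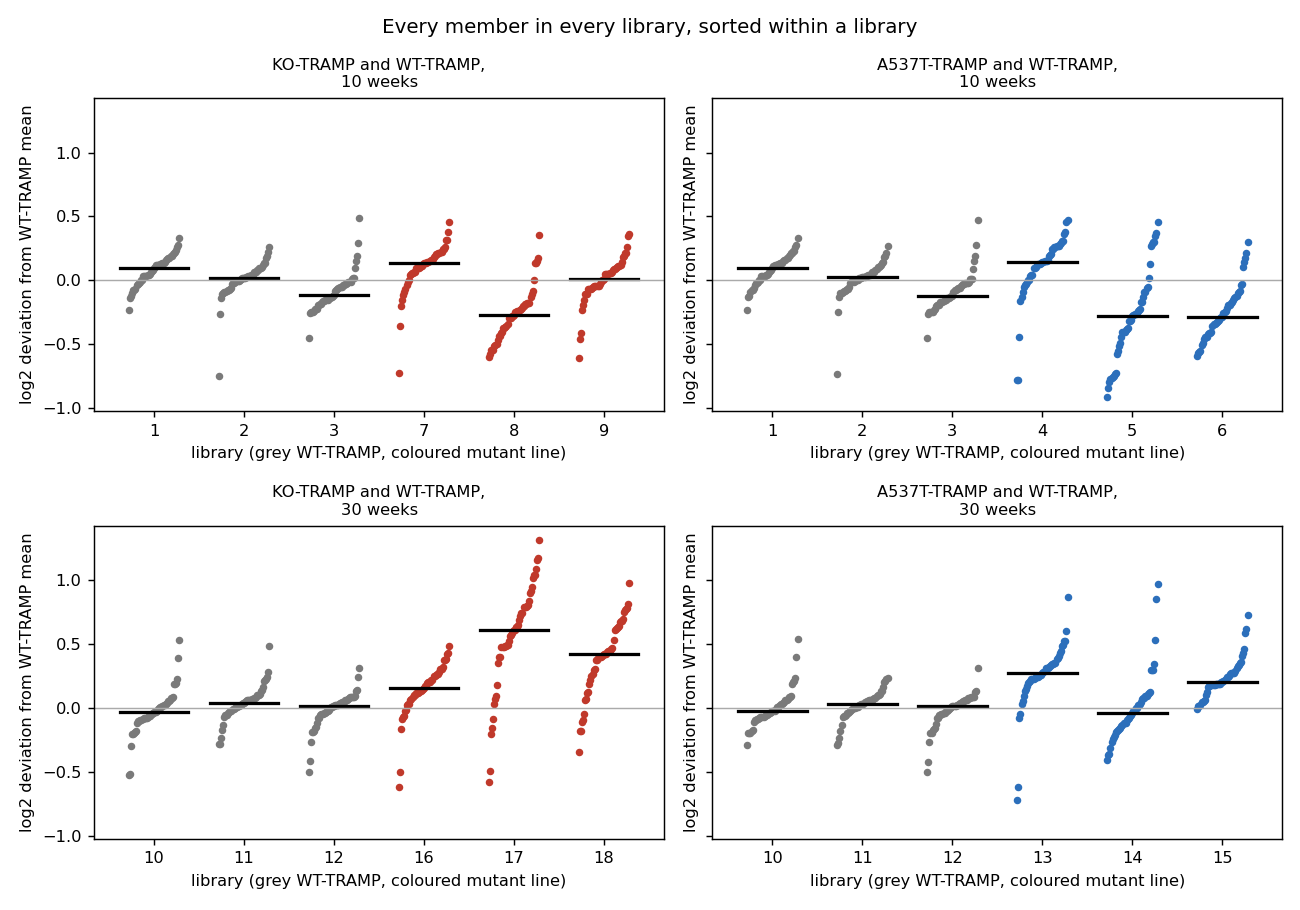
Log2 deviation of every member tested from the mean of the 3 WT-TRAMP libraries of its table, sorted within each library (1 point per gene, black bars are medians, grey WT-TRAMP, red KO-TRAMP, blue A537T-TRAMP). The medians of libraries 16, 17 and 18 are 0.16, 0.61 and 0.42, and those of libraries 8, 5 and 6 at 10 weeks lie near −0.28.

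Cell-type marker lists moved in the same table. The summed neuroendocrine markers (10 genes, 9 of them tested and all 9 above 0) were 1514, 63.3 and 763 normalized counts in libraries 10 to 12 and 66.9, 17296 and 10711 in libraries 16 to 18. Proliferation genes summed to 16760.4, 10232 and 13241 against 9879, 31650 and 22443. Both lists were high in libraries 17 and 18, where the members were highest, and within or below the range of the controls in library 16. Endothelial genes went the same way, with 409 to 519 in WT-TRAMP and 677, 3335 and 2272 in KO-TRAMP. Fibroblast genes were at 16798 to 22476 in all 3 KO-TRAMP libraries against 4276 to 4867, and macrophage genes at 2224 to 2763 against 1037 to 1279. Seminal vesicle genes summed to 496832, 12.5 and 220648 in WT-TRAMP and to 30706.5, 75.1 and 11546 in KO-TRAMP, and B cell genes to 156 to 182 against 29.8 to 69.2. No marker of these 7 lists was at 0 in all 6 libraries. Their part in the members' values was not tested.

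In A537T-TRAMP at 30 weeks most members were also above 0, and none passed the adjusted threshold. The median over the members was 0.14, against 0.00 for all genes with quartiles of −0.17 and 0.16. It was 0.079 without library 13 and 0.24 without library 14. The difference between the lines was not tested. A log2 fold change above 0 was found for 44 of 47 members, against 50% of the 16261 genes tested. At an unadjusted p under 0.05, limma had 4 members higher, against 3.98% of all genes, and 0 lower. They were Uqcrq, Uqcr11, Uqcr10 and Atp5g1. The groups did not overlap for 6 members, against 7.36% of all genes, namely Cyc1, Uqcr10, Uqcr11, Uqcrq, Cox6a1 and Atp5b. Limma called 0 members and 0% of all genes at an adjusted p of 0.05, edgeR called 0 members, and DESeq2 called only Uqcrq, where it called 1.01% of all genes.

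Of the 6 members without overlap, 4 were complex III subunits, although the median of the 9 subunits of complex III (0.14) was not above that of the widely expressed complex IV subunits (0.20). Uqcrq, a small subunit of complex III (chromosome 11, 53427922 to 53430831, minus strand), had 145, 103 and 133 normalized counts in WT-TRAMP libraries 10 to 12 and 231, 248 and 209 in A537T-TRAMP libraries 13 to 15. The lowest A537T-TRAMP library was well above the highest control, and the log2 fold change was 0.86 (SE 0.17, 95% interval 0.46 to 1.25, limma p 0.00132, adjusted p 0.357). Uqcr11, another small subunit of complex III, had 297, 368 and 343 against 509, 413 and 461, a log2 difference of 0.45 (SE 0.13, limma adjusted p 0.581). Atp5g1 had 416, 521 and 496 against 683, 508 and 716, which overlapped because of library 14 (0.40, SE 0.16). Uqcrq was also among the higher members in KO-TRAMP at 30 weeks, with 149, 107 and 138 against 182, 243 and 198 (0.67, SE 0.20, limma adjusted p 0.327), measured against the same control mice.

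The lowest members in A537T-TRAMP at 30 weeks were Cox19, a copper-handling assembly factor, at −0.13 (SE 0.22), Cox5b at −0.04 (SE 0.18) and Cox20, a chaperone of the mitochondrially encoded subunit 2, at −0.0053 (SE 0.15). Among the core members, Cox4i1 (0.23, SE 0.11), Cyc1 (0.28, SE 0.16) and Atp5b (0.19, SE 0.09) had the largest values, and Uqcrc1, Uqcrc2, Uqcrfs1, Cox5a, Atp5a1 and Cycs lay between 0.07 and 0.15. The widely expressed partners Cox6a1, Cox6b1, Cox7b, Cox8a and Cox7a2 had 0.23, 0.22, 0.18, 0.17 and 0.04, with SE of 0.10 to 0.18, and only Cox6a1 did not overlap. Atp5g3 (0.14, SE 0.10) and Atp5g2 (0.06, SE 0.14) overlapped. The median member deviated by 0.27, −0.04 and 0.21 in libraries 13, 14 and 15, so that library 14 lay with the controls. The seminal vesicle sums of these libraries were 626736, 35.8 and 291957, and those of WT-TRAMP libraries 10 to 12 were 456747, 11.7 and 201344. The member medians of libraries 10 to 12 were −0.03, 0.03 and 0.01. Fibroblast genes summed to 4070 to 4639 in WT-TRAMP and to 11114, 6684 and 8691 in libraries 13, 14 and 15. The part of these transcripts was not tested.

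At 10 weeks the members had no median above 0 in either line. In KO-TRAMP the median member had a log2 fold change of −0.03, with 15 of 47 members above 0, against 48.9% of the 15451 genes tested. Limma called 0 members at an adjusted p of 0.05 (smallest 0.716) and 0.0129% of all genes, and edgeR and DESeq2 called 0 members as well. At an unadjusted p under 0.05 there were 0 higher members, against 3.71% of all genes, and 1 lower, Atp5s, against 2.93%. The 3 KO-TRAMP libraries were above all controls for Atp5d alone, against 5.77% of all genes, and below them for Cox18 and Atp5s, against 6.26%. The direction of this median is not fixed. Leaving out library 8 gave 0.042, library 1 gave −0.0037, library 9 gave −0.062, library 3 gave −0.081 and library 7 gave −0.12. Library 8 held the lowest value of the 6 for 35 of 47 members, and the library medians were 0.09, 0.02 and −0.12 in WT-TRAMP and 0.13, −0.27 and 0.01 in KO-TRAMP. Smooth muscle genes summed to 8564, 13543 and 12431 in libraries 7 to 9 against 4766 to 8009 in WT-TRAMP, highest in library 8. Seminal vesicle genes summed to 99.8, 5937 and 180136 against 21.0 to 54.0, and luminal markers to 37722, 43235 and 35635 against 46509 to 57226. Of the 10 luminal genes, 4 were above 0, with a median log2 fold change of −0.07. Neuroendocrine markers summed to 60.2, 387 and 89.1 against 55.1 to 202, and proliferation genes to 14721.5, 10787 and 11870 against 11589 to 16067.5. The part of these lists was not tested.

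The highest members in KO-TRAMP at 10 weeks were Cox10 (0.20, SE 0.31), Atp5d (0.19, SE 0.10) and Uqcrq (0.13, SE 0.20), and the lowest were Cox5a (−0.21, SE 0.13), Cox7a2 (−0.18, SE 0.17) and Atp5k (−0.18, SE 0.18). Atp5d, the δ subunit of the F1 rotor, had 487, 486 and 454 normalized counts in WT-TRAMP and 551, 527 and 550.2 in KO-TRAMP (limma adjusted p 0.767). Cox5a, which with Cox5b belongs to the matrix side of complex IV, had 453, 396 and 348 against 344, 328 and 356, which overlapped. Of the 10 core members only Cycs was above 0.

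In A537T-TRAMP at 10 weeks the median was −0.12, with 12 of 47 members above 0, against 49.1% of the 15438 genes tested. Limma called 0 members (smallest adjusted p 0.600) and 0.00648% of all genes, and edgeR and DESeq2 called 0 members. At an unadjusted p under 0.05 there were 0 higher members, against 5.07% of all genes, and 3 lower, Cyc1, Cox11 and Atp5s, against 2.82%. The same 3 lay below all controls, against 6.53% of all genes, and Uqcrq, Cox14 and Atp5d lay above them, against 6.92%. The library medians were 0.14, −0.28 and −0.28 for libraries 4, 5 and 6, and the median over the group moved to −0.31 when library 4 was left out and to −0.19 for library 3. Leaving out library 6 gave −0.058 and library 5 gave −0.043. Seminal vesicle genes summed to 5025, 1156560 and 135158 in these libraries and to at most 49.5 in the controls, smooth muscle genes to 10630, 30079 and 16384 against 4239 to 7136, and proliferation genes to 14090.2, 7947 and 8886 against 10311 to 14375. Libraries 5 and 6, which had the lower member medians, held the most seminal vesicle and smooth muscle transcripts and the fewest of proliferation, and the part of these was not tested. Endothelial genes summed to 153 to 178 in the controls and to 223, 334 and 502 in libraries 4, 5 and 6, and fibroblast genes to 2773 to 4250.3 against 4830.2, 6417 and 6440.4, also untested.

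Cyc1 had 393, 492 and 413 normalized counts in WT-TRAMP libraries 1 to 3 and 316, 333 and 286 in A537T-TRAMP libraries 4 to 6. All 3 A537T-TRAMP libraries were below the controls, library 4 included, with a log2 fold change of −0.47 (SE 0.15, 95% interval −0.82 to −0.12, limma adjusted p 0.600). Cox5a had 415, 364 and 318 against 333, 214 and 258 (−0.46, SE 0.20), and Atp5g3 had 896, 761 and 677 against 753, 453 and 566 (−0.42, SE 0.21), both with overlap in library 4. Uqcrq was higher, with 148, 134 and 114 against 182, 167 and 162 (0.37, SE 0.17, limma adjusted p 0.600). Cox14, an assembly factor for mitochondrially encoded subunit 1, had 0.26 (SE 0.15) and Atp5d 0.21 (SE 0.12). Cox11, which delivers copper to the oxidase, had 54.6, 66.8 and 46.5 against 31.7, 33.2 and 41.3 (−0.64, SE 0.27). Atp5s had 85.2, 104 and 79.8 against 51.3, 50.8 and 71.1 (−0.63, SE 0.24). Cox11 and Atp5s have means under 100 normalized counts and were named after their values were seen.

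The change of each line's effect between the ages was tested as an interaction over 12 libraries, 30 weeks minus 10 weeks. In KO-TRAMP the median difference was 0.46, with 41 of 47 members above 0, against 50.3% of the 16431 genes tested. At an unadjusted p under 0.05, limma had 17 members above 0, against 6.31% of all genes, and 0 below. Limma, edgeR and DESeq2 called 0 members at an adjusted p of 0.05 (smallest limma value 0.260), and limma 0% of all genes. Without library 16, limma called 11, where it called 11.8% of all genes. In A537T-TRAMP the median difference was 0.29, or 0.43 without library 4, with 44 of 47 above 0, against 50.5% of the 15941 genes. There were 6 members above 0 at an unadjusted p under 0.05, against 2.66% of all genes, and 0 below. The 3 tools called 0 members (smallest limma adjusted p 0.721), and limma 0% of all genes. A difference between the ages was therefore not established for any member in either line.

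The members with the smallest p in these interactions were Atp5s, Atp5k and Atp5g1 in KO-TRAMP and Cyc1, Atp5s and Cox11 in A537T-TRAMP. Atp5s (chromosome 12, 69724950 to 69744660, plus strand) had 97.9, 120.0 and 92.5 normalized counts in WT-TRAMP and 80.0, 67.6 and 67.0 in KO-TRAMP at 10 weeks. At 30 weeks it had 89.5, 82.5 and 65.0 against 91.6, 109 and 104. It lay below all controls at the younger and above all of them at the older age, with a log2 difference of 0.89 (SE 0.26, limma p 0.00578, adjusted p 0.260). In A537T-TRAMP the difference for Atp5s was 0.83 (SE 0.29, limma p 0.0153, adjusted p 0.721), and its groups overlapped at 30 weeks. Cyc1 in A537T-TRAMP went from below all controls at 10 weeks to above them at 30 weeks, where it had 377, 343 and 365 against 385, 395 and 557. The log2 difference was 0.75 (SE 0.22, limma p 0.00518, adjusted p 0.721). For Atp5k in KO-TRAMP the difference was 0.95 (SE 0.30, limma adjusted p 0.278), and for Atp5g1 0.72 (SE 0.24, limma adjusted p 0.295). Uqcrq in A537T-TRAMP was above all controls at both ages, and its difference was 0.48 (SE 0.23, limma p 0.0596, adjusted p 0.721).

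**Figure D4:**
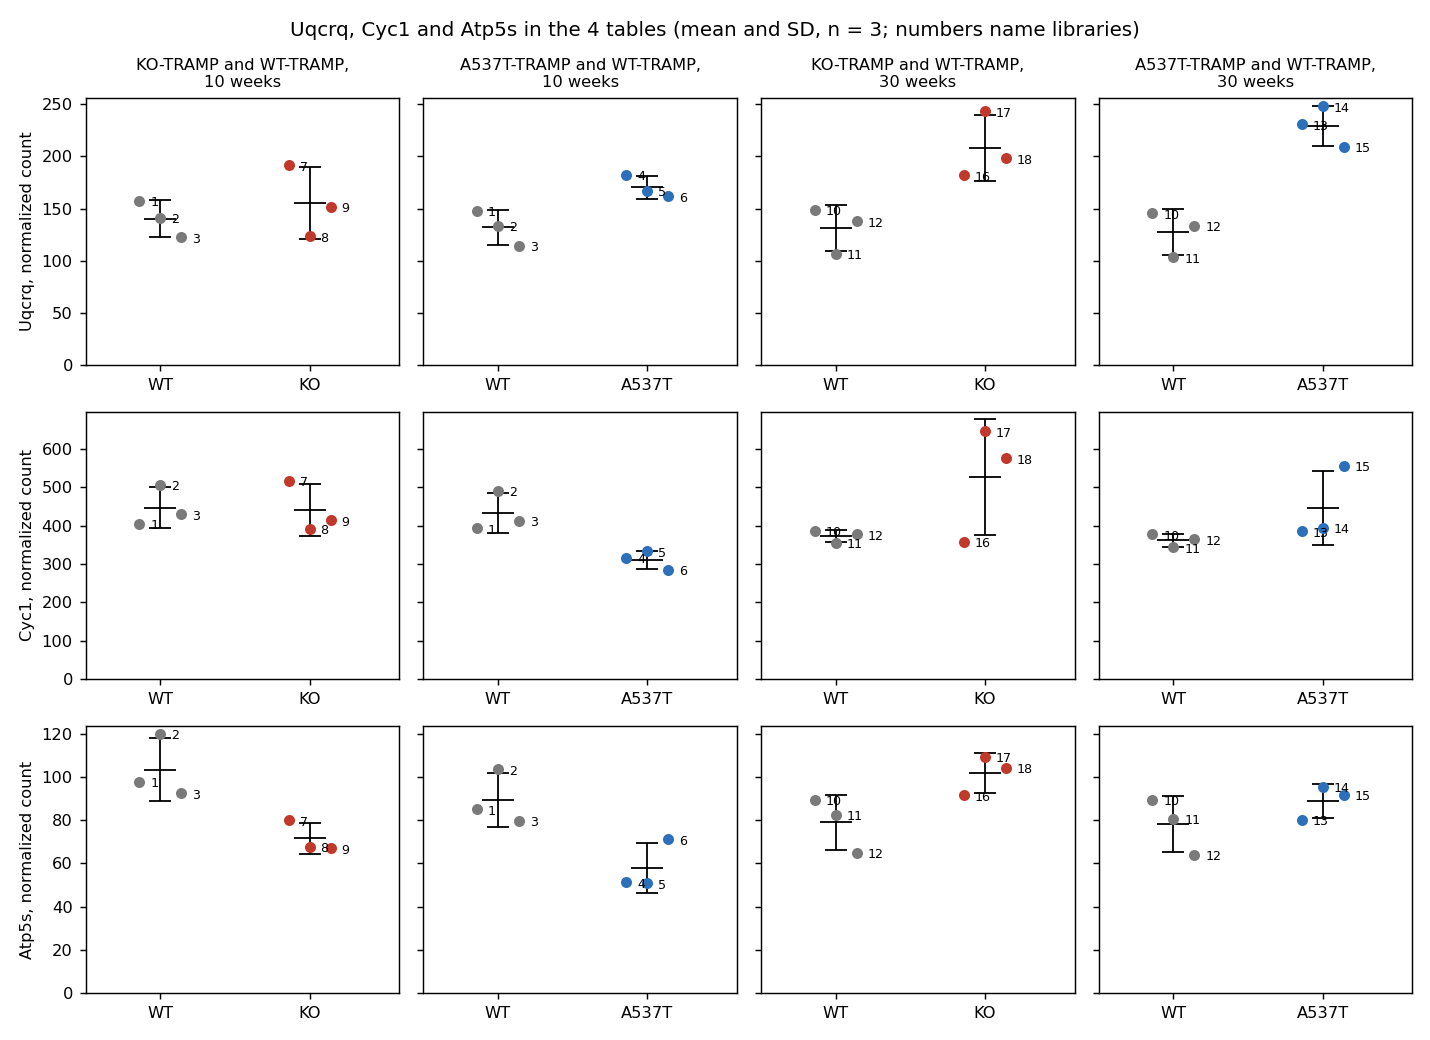
Normalized counts of Uqcrq, Cyc1 and Atp5s in the 4 tables, with the WT-TRAMP libraries in grey (KO-TRAMP red, A537T-TRAMP blue, numbers name libraries, bars are mean and SD, n = 3). Uqcrq is above every control in A537T-TRAMP at both ages, Cyc1 in A537T-TRAMP is below at 10 weeks and above at 30 weeks, and Atp5s in KO-TRAMP does the same.

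The tissue isoforms of complex IV, which replace widely expressed subunits in muscle, brown fat, lung, brain or testis, were near the limit of detection. Cox7b2 had 0 reads in all 18 libraries, where a count of 0 allows up to 3 reads per library, and Cox8c had reads in library 5 only. Cox8b, an isoform of heart, skeletal muscle and brown fat, had at most 1.2 normalized counts in the 10-week KO-TRAMP table and 5.6, 15.4 and 12.5 in WT-TRAMP at 30 weeks. The 30-week KO-TRAMP libraries had 3.1, 2.9 and 0, below all controls. In A537T-TRAMP at 30 weeks it had 0 in all 3 libraries against 5.3, 14.3 and 12.8. Cox7a1, the muscle partner of Cox7a2, had 6.3, 13.5 and 9.6 in WT-TRAMP and 4.9, 4.8 and 2.0 in A537T-TRAMP in that table. Its groups did not overlap there, and overlapped in KO-TRAMP at 30 weeks. The highest Cox8b value rests on 16 reads. In the 10-week KO-TRAMP table Cox8b and Cox6a2 had reads only in libraries 2 and 9, at most 6 in a library. Skeletal muscle markers summed to 2153 and 2364 in these libraries and to 198 to 399 in the others, and their part was not tested. Brown fat's Ucp1 moved with Cox8b, at 54.8, 259 and 162 in WT-TRAMP libraries 10 to 12 and at 2.1, 1.5 and 1.0 in libraries 16 to 18. The 10 adipocyte markers summed to 769.9 to 1857 in WT-TRAMP and 373 to 666 in KO-TRAMP, and to 733 to 1742 and 241 to 384 in the A537T-TRAMP table, and their part was not tested. Cox4i2, the lung isoform of Cox4i1, had 0 reads in WT-TRAMP at 10 weeks, 0.9, 2.9 and 2.8 in KO-TRAMP and 1.6, 3.3 and 4.6 in A537T-TRAMP, at most 4 reads in a library.

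The subunits encoded in the mitochondrial genome passed in no comparison, with limma adjusted p of 0.411 or more. In KO-TRAMP at 30 weeks mt-Co2, the copper-bearing subunit 2 of complex IV, had 14342, 15902 and 15151 normalized counts in WT-TRAMP and 15908, 19896 and 18027 in KO-TRAMP, which just avoided overlap (log2 fold change 0.24, SE 0.12). For mt-Co1 and mt-Co3 the values were 0.16 (SE 0.14) and 0.26 (SE 0.14). Cytochrome b of complex III, mt-Cytb, had 7502, 9312 and 7865 against 9108, 6546 and 7165 (−0.12, SE 0.16). The joint transcript of ATP synthase subunits 8 and 6, which the tables list as mt-Atp8_6, had −0.03 (SE 0.14). In libraries 17 and 18, where the nuclear subunits were highest, mt-Co1, mt-Co2 and mt-Co3 were above all controls while mt-Cytb and mt-Atp8_6 were below all of them. At the other ages and in the other line, the 5 values lay between −0.19 and 0.08, with all groups overlapping.

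**Figure D5:**
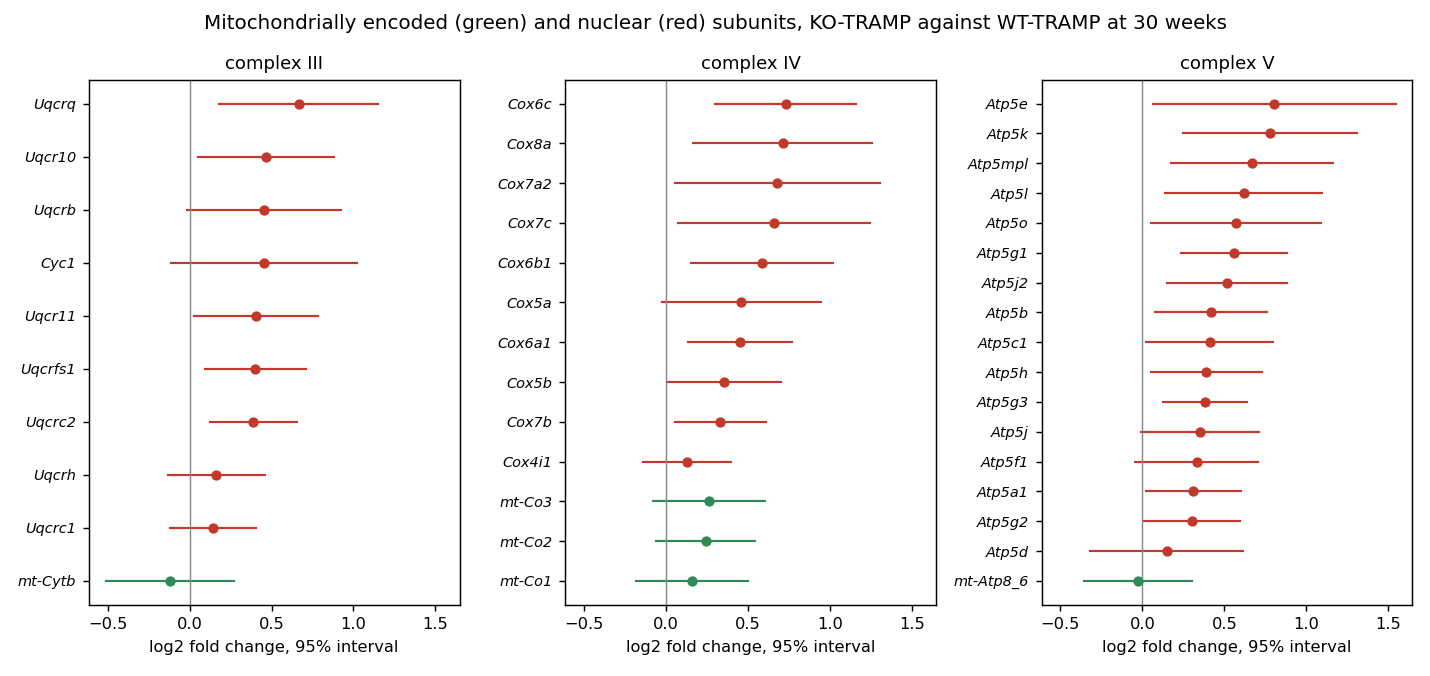
Log2 fold change in KO-TRAMP against WT-TRAMP at 30 weeks with its 95% interval (n = 3 libraries per group) for subunits encoded in the nucleus (red) and in the mitochondrial genome (green), by complex. Nuclear values run from 0.13 to 0.80, and those of mt-Cytb and mt-Atp8_6 are −0.12 and −0.03.

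Other genes of the pathway were read from lists of named factors. Usmg5, a supernumerary subunit of complex V whose symbol the rule does not catch, had 310, 351 and 329 normalized counts in WT-TRAMP at 30 weeks and 431, 835 and 589 in KO-TRAMP (0.85, SE 0.25, limma adjusted p 0.327), like the supernumerary members. The inhibitor of complex V, Atpif1, had 0.45 (SE 0.12). Of 27 further factors of complexes III to V tested, 21 were above 0 in the older KO-TRAMP and 20 in the older A537T-TRAMP mice, with medians of 0.18 and 0.10. In the older KO-TRAMP mice the highest of them was Uqcc2 (0.86) and the lowest Taco1 (−0.43). At 10 weeks 6 and 7 of the 27 were above 0, with medians of −0.12 and −0.13. Over all genes tested in these 4 comparisons, 50.9%, 50%, 48.9% and 49.1% were above 0. Limma called 0 of them in each comparison, with 3, 2, 0 and 0 at an unadjusted p under 0.05 in the order just given, against 13.5%, 7.21%, 6.64% and 7.89% of all genes in either direction, and edgeR and DESeq2 called 0 as well. Of 14 carriers and regulators tested, 9 were above 0 in the older KO-TRAMP mice, 4 in the older A537T-TRAMP mice, and 6 and 8 in the younger mice of these lines. Limma and edgeR called 0 of the 14. At an unadjusted p under 0.05 limma had 2 each, or 3 in A537T-TRAMP at 10 weeks. The shares of all genes are those given for the 27 factors. At 30 weeks DESeq2 called Slc25a5 in KO-TRAMP and Ppargc1a in A537T-TRAMP, where it called 4.76% and 1.01% of all genes. Slc25a5, an ADP/ATP carrier of the inner membrane, had 1702, 2162 and 2006 against 2424, 3465 and 3043 in KO-TRAMP at 30 weeks (0.60, SE 0.17).

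Of the regulators known to act on these genes, Nrf1, Gabpa and Yy1 overlapped between the groups in KO-TRAMP at 30 weeks, with log2 fold changes of 0.15, 0.10 and −0.0050. Tfam, which acts on the mitochondrial genome instead, overlapped there as well (0.04). Ppargc1a, a coactivator of mitochondrial biogenesis, was lower in A537T-TRAMP at 30 weeks, with 269, 304 and 264 normalized counts in WT-TRAMP and 179, 190 and 182 in A537T-TRAMP. The log2 fold change was −0.60 (SE 0.12, limma p 0.00136, adjusted p 0.357), without overlap, while the members of that table had a median of 0.14. Tfam, which packages and transcribes the mitochondrial genome, was also below all controls there, with 371, 366 and 417 against 349, 260.0 and 242 (−0.45, SE 0.16, limma adjusted p 0.673). Ppargc1b, a related coactivator with few reads, had 8.8, 11.5 and 7.1 normalized counts in WT-TRAMP and 12.2, 55.3 and 64.2 in A537T-TRAMP at 10 weeks (1.87, SE 0.66, limma adjusted p 0.600). At 30 weeks it had 11.2, 74.9 and 38.8 in WT-TRAMP and 8.2, 15.3 and 14.6 in KO-TRAMP, with overlap (−1.32, SE 0.73). These 3 genes were named after their values were seen. For Ppargc1a the other comparisons had −0.34 and −0.64 at 10 weeks in KO-TRAMP and A537T-TRAMP and 0.05 in KO-TRAMP at 30 weeks.

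Member length had a weak relation to the difference in KO-TRAMP at 30 weeks. Across the 49 members, Spearman's rho between exon length and log2 fold change was −0.36 and Pearson's r with log2 length −0.37, where all points share the same 6 libraries. The 25 members with exons of at most 1021 bases had a median of 0.46 and the 24 longer ones 0.36. These 49 include Cox6b2 and Cox7a1, both in the shorter group and with few reads. Cox6b2 passed the filter through its KO-TRAMP values, so these values are a description only. In the other comparisons rho was 0.20, 0.21 and −0.02.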

How the data were processed

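RNA of 18 prostate samples was sequenced and the values analysed are gene-level signal values deposited by the authors. Reads had been trimmed with Trim Galore 0.4.1 and cutadapt 1.18, aligned with STAR 2.7.3a to a GRCm38 genome masked for nuclear copies of mitochondrial DNA, and quantified with Salmon. The authors then divided each library's estimated reads by 1 DESeq2 1.26 size factor within each of 4 tables of 6 libraries. A library was placed by its header number: columns found in both tables of an age are WT-TRAMP. Whole reads were recovered for every value (tolerance 0.01) and gave the depths. The authors' comparison tables, which hold log2 fold changes, their posterior SD and s-values, were not used.

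Normalized counts were tested on the log2(value + 1) scale with limma 3.58.1 (trended eBayes, R 4.3.3), 3 libraries against 3 within a table, for genes with a mean of at least 10, with Benjamini-Hochberg adjustment over all of them and a threshold of 0.05. Interactions used 12 libraries per line. Intervals and SE are limma's. Overlap means that the ranges of the groups cross. Alternatives were edgeR 4.0.16 and DESeq2 1.42.0 on the recovered reads, rescaling, array weights, another pseudocount, other filters, adding reads of near-identical copies, and leaving out each library. The tests were also run on simulated data. Members named for size are the 3 highest and 3 lowest with a mean of at least 100, and core subunits, partners of tissue isoforms and c-ring genes are named at 30 weeks. The members and lists were chosen with earlier results of these data known. Gene positions and exon lengths are from GENCODE vM21, an earlier release than the vM24 behind the tables. Counting error limits precision only for members with few reads.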

Additional observations from a re-analysis of the deposited data

How the results depend on the processing

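Of 1063 recomputed values, 979 kept their direction and their side of the threshold, 61 passed it only under the alternative and 23 changed sign, over 13 results. At 30 weeks DESeq2 called 5 members in KO-TRAMP and 1 in A537T-TRAMP. Array weights, which let libraries count unequally, called 37 of 49 members in KO-TRAMP at 30 weeks, 36 of them higher (63.6% of all genes called). They called 15 in A537T-TRAMP at 30 weeks (20.8%), and 25 and 16 in the interactions of KO-TRAMP (31.6%) and A537T-TRAMP (10.3%), all above 0. Array weights turned Cox10 in KO-TRAMP to 0.065 and Cox19, Cox5b and Cox20 in A537T-TRAMP to 0.11, 0.16 and 0.11 at 30 weeks. Leaving out each library gave 0 to 24 calls in KO-TRAMP at 30 weeks and 0 to 11 in its interaction, the most without library 16 in both. It gave a median of −0.31 to −0.043 in A537T-TRAMP at 10 weeks. The ranges that cross 0 were, in KO-TRAMP at 10 weeks, Cox10 −0.18 to 0.44, Uqcrq −0.029 to 0.29 and Atp5k −0.30 to 0.0079, in KO-TRAMP at 30 weeks Cox15 −0.42 to 0.094, and in A537T-TRAMP at 30 weeks Cox19 −0.25 to 0.065, Cox5b −0.18 to 0.14, Cox20 −0.10 to 0.049, Cox7a2 −0.072 to 0.24 and Atp5g2 −0.024 to 0.21. Without libraries 17 and 18, chosen after seeing the data, the median in KO-TRAMP at 30 weeks was 0.16, Cox10 had 0.070, Cox15 0.32, Cox7a2l 0.029, Cyc1 −0.059 and Cycs −0.023. Rescaling each library to 1 total moved the share of all genes above 0 at 10 weeks from 48.9% to 60.9% in KO-TRAMP and from 49.1% to 40% in A537T-TRAMP, and from 50% to 40% in A537T-TRAMP at 30 weeks. The members above 0 were then 29, 5 and 42 of 47, and Cox7a2 in A537T-TRAMP at 30 weeks had −0.020. The cause of these changes was not tested.

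No paired analysis was possible because the table headers carry no replicate number. Members under 10 normalized counts were given as values only.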
